A study of Mus musculus with 6 samples.

Results

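The genes described here are those named for a C-type lectin domain, the Clec genes. Members were chosen by symbol alone, as every row of the deposited count table whose symbol starts with Clec and a digit, which gave 32 of 23282 rows. The counts come from alveolar macrophages, the resident phagocytes of the air spaces, sorted from mouse lung by their surface CD45, CD11c, F4/80 and SiglecF and their lack of CD11b. There were 3 libraries from wildtype mice (WT) and 3 from mice with floxed Sdha and LysM-Cre (Sdha-KO), which lack the flavoprotein subunit of succinate dehydrogenase in cells that have expressed Cre from the Lyz2 locus, that is in myeloid cells at large and not in alveolar macrophages alone. The labels give no treatment, age or sex. They also leave unstated if each library is 1 mouse or pooled mice, and the p-values below therefore cover only library-to-library spread, part of which may be technical. Replicate numbers are also batch numbers, so each of the 3 batches holds 1 library of each genotype.

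C-type lectin receptors are membrane proteins with a compact fold that in some members binds sugars in a calcium-dependent way and in others binds proteins, lipids or crystals. On macrophages and dendritic cells, activating members recognise fungal and mycobacterial cell walls and signal through the kinase Syk, either by a motif of their own or through the adaptor chains encoded by Fcer1g and Tyrobp, and then through Card9, Bcl10 and Malt1 to NF-kB. Inhibitory members carry tyrosine motifs that recruit the phosphatases encoded by Ptpn6, Ptpn11 and Inpp5d. Alveolar macrophages are known for Dectin-1, the product of Clec7a, with which they bind the beta-glucan of inhaled fungi.

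Of the 32 genes, 24 lie on chromosome 6 in the GENCODE M21 annotation of mm10, 3 on chromosome 8 and 1 each on chromosomes 7, 9, 11, 12 and 16. The Clec4a, Clec4b, Clec4n, Clec4d and Clec4e genes form a run from 122921848 to 123289870 on chromosome 6, and Clec2d, Clec2i, Clec12a, Clec1b, Clec9a, Clec1a and Clec7a lie further along it. Upstream sequence is shown for Clec4a3, Clec2d and Clec5a. Over the 6 libraries, Clec2d was the Clec gene whose levels followed Clec4a3 most closely, and Clec5a had the most negative correlation with it. The windows are the 250 bases before the first listed RefSeq start (GRCm38.p6), read 5′ to 3′ on the gene's strand, at chr6:122952265-122952514 (plus), chr6:129180365-129180614 (plus) and chr6:40585806-40586055 (minus). Capitals mark GGAA or its complement TTCC, the core shared by ETS factors, the family of the macrophage regulator PU.1.
Clec4a3: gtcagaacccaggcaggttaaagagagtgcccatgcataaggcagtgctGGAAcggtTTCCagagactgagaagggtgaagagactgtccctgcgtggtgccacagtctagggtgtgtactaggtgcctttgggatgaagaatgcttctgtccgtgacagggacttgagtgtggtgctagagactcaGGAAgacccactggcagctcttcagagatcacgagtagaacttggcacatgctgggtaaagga
Clec2d: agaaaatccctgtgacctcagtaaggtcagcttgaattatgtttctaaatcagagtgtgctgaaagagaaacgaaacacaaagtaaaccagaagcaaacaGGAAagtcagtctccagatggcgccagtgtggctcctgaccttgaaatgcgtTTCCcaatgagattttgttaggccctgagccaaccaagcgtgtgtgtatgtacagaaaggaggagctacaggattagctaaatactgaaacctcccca
Clec5a: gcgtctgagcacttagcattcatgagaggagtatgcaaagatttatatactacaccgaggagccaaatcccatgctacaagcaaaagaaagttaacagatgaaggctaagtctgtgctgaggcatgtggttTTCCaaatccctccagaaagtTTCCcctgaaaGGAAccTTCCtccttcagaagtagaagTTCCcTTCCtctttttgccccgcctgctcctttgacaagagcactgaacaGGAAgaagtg
The core was found 3 times before Clec4a3, 2 times before Clec2d and 7 times before Clec5a, and at least once in 93.4% of the 32851 listed promoters. None of the 3 windows held the longer PU.1 core GGAAGT, which contains the ETS core (19.7% of promoters), the AP-1 site TGANTCA (6.75%), the ATF4 response element TGATGNAA (3.45%), the hypoxia response core ACGTG (16.6%) or the E-box CACGTG (6.02%), which overlaps the hypoxia core. Both strands were searched, and no match says only that these letters are not in these windows.

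Sdha, the targeted gene, had 457, 295 and 567 counts in WT and 313, 113 and 153 in Sdha-KO replicates 1 to 3, or 64.6 ± 8.13 against 23.3 ± 2.59 in counts scaled for library size and composition (CPM, SD, n = 3). Every Sdha-KO library lay below every WT library, though the gene did not pass the test (edgeR adjusted p = 1). Which exons were deleted was not given in the sources used here, so these 3′ counts may come from outside them and then check nothing. Total counts were 5400160 to 8472907 per library. Both batch 1 libraries stood apart. Among 3447 genes that reached 100 counts in all 4 libraries of batches 2 and 3, 136 were missing from WT replicate 1 and 612 from Sdha-KO replicate 1. Of the 17 tested Clec genes, 4 had no count in WT replicate 1 (26.4% of all tested genes) and 8 had none in Sdha-KO replicate 1 (48.9%), so results are given with and without both. The sorted type was checked on 14 markers of alveolar macrophages, all of them tested. Their summed level was 7244 to 8340.3 CPM in WT and 6298 to 8374 CPM in Sdha-KO libraries, of which the chitinase-like gene Chil3 alone made up 55.7% to 65%. The other 13 summed to 2916 to 3404 CPM in WT and 2601 to 2989.7 CPM in Sdha-KO libraries, and 10 of the 14 had a negative log2 fold change. Siglecf and Adgre1, which encode the sort markers SiglecF and F4/80, nevertheless had no count in Sdha-KO replicate 1. Sex-linked transcripts differed between libraries. Xist, transcribed from the inactive X chromosome, had 0, 4608 and 6055 counts in WT and 2683, 498 and 822 in Sdha-KO replicates 1 to 3, and Y-linked Ddx3y had 222, 0 and 143 and then 0, 354 and 432 counts. In the 4 libraries of batches 2 and 3, genotype and the mix of sexes cannot be told apart.

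The first question was which Clec genes wildtype alveolar macrophages express. A gene was taken as expressed at 1 CPM or more in at least 2 of the 3 WT libraries, and 16 of the 32 Clec rows met this, against 44.4% of all rows in the table. Because the library kit reads the 3′ end of each transcript, CPM does not scale with transcript length and is used here as the level per transcript. Clec7a led with a level of 1295 ± 233 CPM (mean ± SD, n = 3 here and below), above 99.8% of all expressed genes. Clec4a3 followed at 226 ± 74.7 CPM and Clec4n at 213 ± 6.23 CPM, and their ranges over the WT libraries overlapped. Clec4a2 had 90.7 ± 31.3 CPM and Clec4b1 70.9 ± 32.2 CPM, again with overlapping ranges. Then came Clec4e, Clec2d, Clec1a, Clec16a and Clec5a, with WT means between 18.6 and 38.9 CPM and each overlapping its neighbours in that order. The 3 leading genes held most Clec counts in every library: Clec7a made up 52.4%, 65.3% and 66.8% of them in WT replicates 1 to 3, Clec4n 11.1%, 10.1% and 9.43%, and Clec4a3 15.5%, 7.66% and 9.59%.

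The other 6 expressed members were lower, and for most of them the level rested on batches 2 and 3. Clec12a had 0, 19.8 and 19.2 CPM in WT replicates 1 to 3, Clec4a4 had 0, 19.1 and 11.1 CPM, and Clec4a1 had 0, 5.10 and 4.97 CPM. Clec1b had 0.123, 6.44 and 10.8 CPM, and Clec2i had 0.245, 1.55 and 1.53 CPM. Clec4d was the exception, with 17.3 CPM in WT replicate 1 and 7.10 and 7.13 CPM in the others. With 1 CPM asked of all 3 WT libraries, 11 members remained, and the 5 lost were Clec12a, Clec1b, Clec2i, Clec4a1 and Clec4a4.

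The remaining 16 members did not meet the level. No count was found in any library for Clec18a, Clec2f, Clec2h, Clec3a, Clec4b2 and Clec4f, the last a marker of Kupffer cells in the liver. The limit that a count of 0 allows is 3 counts, or 0.25 CPM in the deepest and 0.666 CPM in the shallowest scaled library, and covers counting error alone. Clec11a, Clec12b, Clec2g and Clec2l had at most 3 counts in 1 library each, and Clec2e had 14 counts in WT replicate 3 alone. Clec14a, an endothelial gene, reached 18 counts in WT replicate 2. Clec3b, which encodes the plasma protein tetranectin, reached 46 counts in Sdha-KO replicate 2, and Clec4g, an endothelial lectin of liver and lymph node, had 35 counts in that library and none elsewhere. Clec9a, the receptor of type 1 conventional dendritic cells for dead cells, had 0, 3 and 50 counts in WT replicates 1 to 3, and Clec10a, which binds galactose-type sugars, had 0, 0 and 4.

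**Figure D1:**
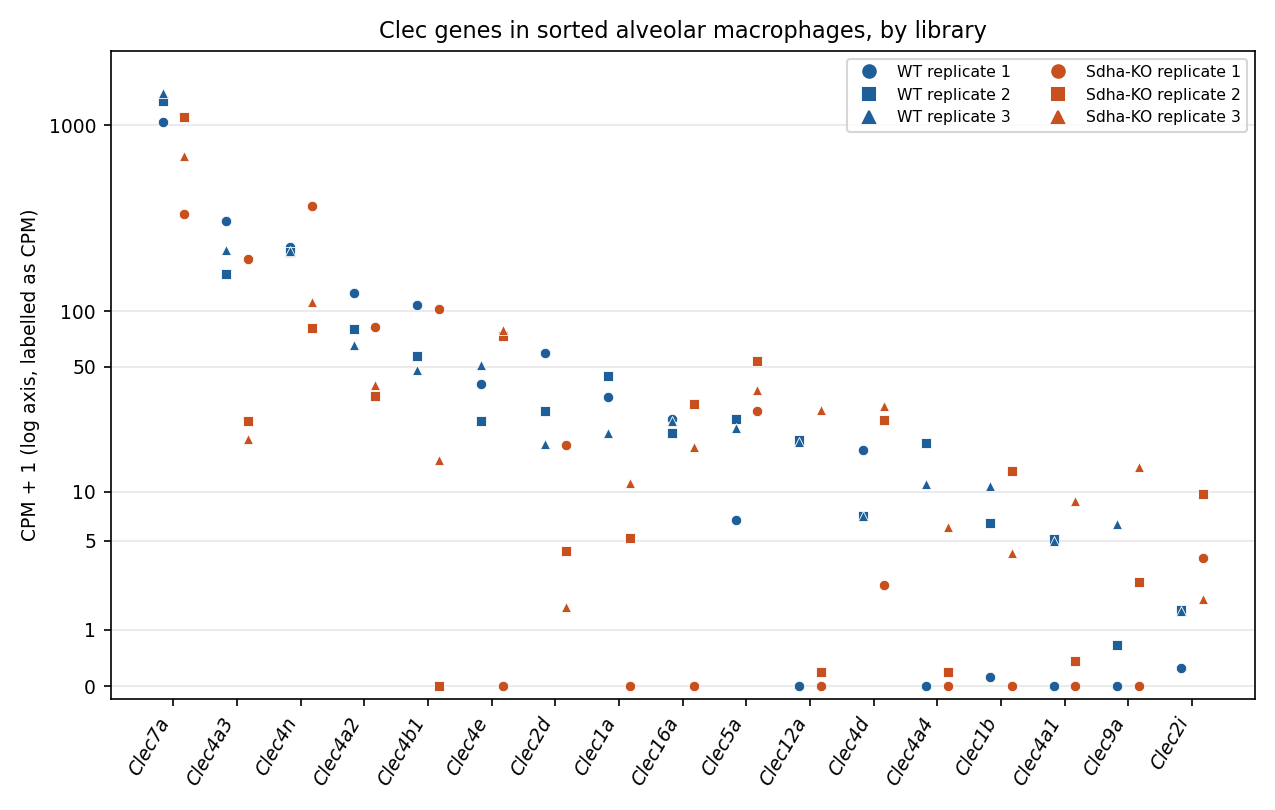
Level of the 17 tested Clec genes (CPM, log axis of CPM + 1, labelled as CPM) in each of the 6 libraries, with WT in blue and Sdha-KO in orange and marker shapes for replicates 1 to 3, ordered by WT mean. Clec7a lies at 335 to 1493 CPM, and the points on the 0 line are mostly the batch 1 libraries.

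The second question was which of these genes differ between genotypes. Of the 32 rows, 17 passed the filter on low counts. They are the 16 expressed members and Clec9a, and 9 other rows with some counts were too low to test. With all 6 libraries and a threshold of 0.05 on the Benjamini-Hochberg adjusted p, edgeR's quasi-likelihood test called 0 of the 17, each with an adjusted p of 1. It called 0.0502% of all 9963 tested genes, 0.0401% as higher and 0.01% as lower in Sdha-KO. At an unadjusted p under 0.05 there was 1 Clec gene, Clec7a, against 2.64% of all genes. DESeq2 called 0 Clec genes (0.248% of all genes) and had 0 at an unadjusted p under 0.05 (3.38%). By limma-voom 0 were called (0.201% of all genes) and 2 had an unadjusted p under 0.05 (8.63%). With the replicate block edgeR called 0 Clec genes and 0% of all genes. The median log2 fold change was -0.41 over the tested Clec genes and -0.13 over all tested genes, and 12 of 17 were below 0 against 55% of all genes. Summed over all 32 rows, the Clec level was 1982, 2071 and 2235 CPM in WT and 1135, 1494 and 1119.8 CPM in Sdha-KO replicates 1 to 3. On that scale every Sdha-KO library lay below every WT library. As a plain share of library counts the genotypes met, at 0.161% to 0.219% in WT and 0.103% to 0.161% in Sdha-KO libraries. The libraries at 0.161% were WT replicate 2 and Sdha-KO replicate 1. The ribosomal RNA row Rn45s held 57.6% and 20.9% of their counts, the highest and lowest shares of the 6 libraries. The plain share therefore also depends on that row. In sorted bulk samples, fewer cells of a type and less RNA per cell cannot be told apart.

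Clec4a3 was the member with the clearest difference outside batch 1. It belongs to the dendritic cell immunoreceptor (DCIR) family, single-pass receptors of myeloid cells. The gene lies on chromosome 6 from 122952515 to 122969875 (mm10, plus strand, protein-coding). The WT libraries held 2501, 715 and 1683 counts in replicate order and the Sdha-KO libraries 2285, 136 and 134, or levels of 306, 159 and 214 CPM against 191, 25.3 and 20.0 CPM. Sdha-KO replicate 1 sat among the WT libraries and the other 2 Sdha-KO libraries lay far below all of them. Within batches, WT exceeded Sdha-KO 1.61-fold in batch 1, 6.27-fold in batch 2 and 10.7-fold in batch 3. With all libraries the log2 fold change was -1.52 (SE 0.834, edgeR adjusted p = 1), and with the replicate block it was -2.28 (edgeR adjusted p = 0.966).

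Without both batch 1 libraries, Clec4a3 fell 8.18-fold in Sdha-KO macrophages (log2 fold change -3.03, SE 0.323, edgeR adjusted p = 0.0206). It was the 1 Clec gene of 19 tested to pass in those 4 libraries, where 0.251% of all 10757 tested genes passed and 0.112% passed as lower. At an unadjusted p under 0.05 there were 8 Clec genes there, against 10.2% of all genes, and 10 of 19 log2 fold changes were below 0, against 50.7%. The difference also passed there with library totals alone (log2 fold change -2.93, edgeR adjusted p = 0.0187, where 0.446% of all genes passed and 0.13% as lower), with the replicate block (-3.03, edgeR adjusted p = 3.29e-06, with 1 residual degree of freedom) and by DESeq2 (-3.03, adjusted p = 3.99e-13). Leaving out Sdha-KO replicate 1 alone gave -3.32 (edgeR adjusted p = 0.0752), which missed the threshold, as did all other Clec genes in that fit (0.0272% of all genes passed). The 2 libraries with no Ddx3y count, WT replicate 2 and Sdha-KO replicate 1, had 159 and 191 CPM of Clec4a3. Among the 4 with Ddx3y counts, WT replicates 1 and 3 had 306 and 214 CPM and Sdha-KO replicates 2 and 3, with the most Ddx3y counts, had 25.3 and 20.0 CPM. The part of sex in the Clec4a3 difference was not tested. No window of 50 bases from the last 500 bases of any Clec4a3 transcript occurred in a transcript of another gene, so a shared 3′ end with its DCIR paralogs was not seen at that length.

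**Figure D2:**
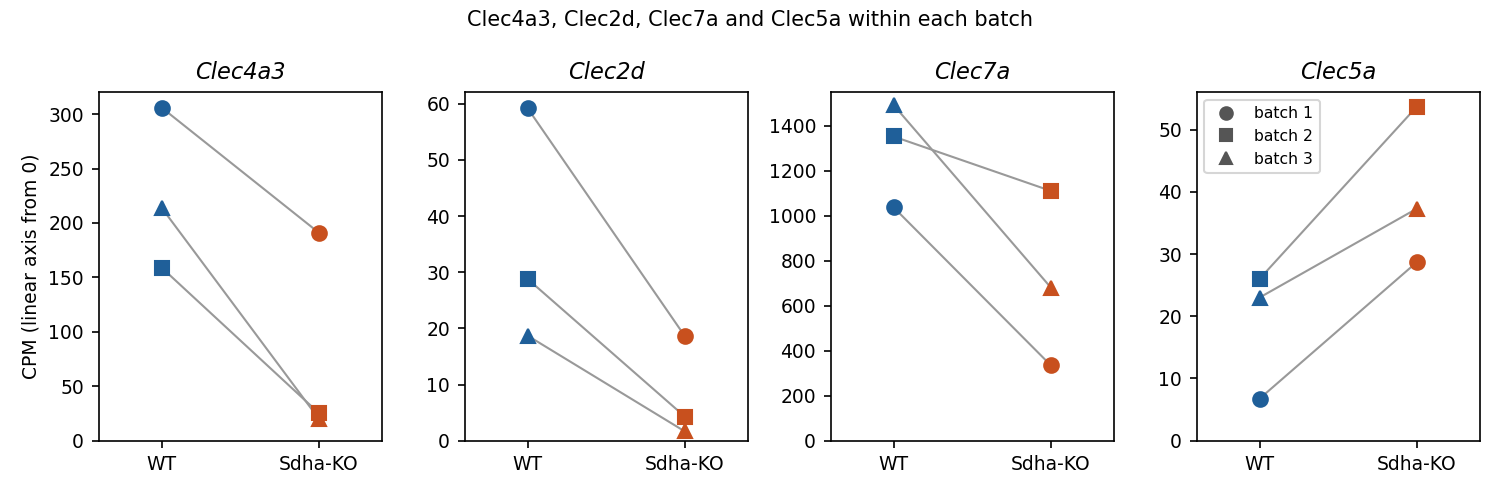
Level (CPM, linear axes from 0) of Clec4a3, Clec2d, Clec7a and Clec5a in WT (blue) and Sdha-KO (orange) libraries, with a grey line joining the 2 libraries of a batch. All lines for Clec4a3, Clec2d and Clec7a slope down and all lines for Clec5a slope up, and for Clec4a3 the batch 1 line ends at 191 CPM, within the WT range of 159 to 306 CPM.

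The other DCIR members and their activating relatives are neighbours of Clec4a3 on chromosome 6. Clec4a2, whose product DCIR1 is an inhibitory receptor, had 126, 80.8 and 65.6 CPM in WT and 82.4, 34.8 and 39.8 CPM in Sdha-KO replicates 1 to 3 (log2 fold change -0.79, SE 0.606). It was lower in Sdha-KO in all 3 batches, with overlapping groups. Clec4b1, whose product DCAR is the activating counterpart, had 108, 57.0 and 47.9 CPM and then 103, 0 and 15.2 CPM (-0.84, SE 1.63). Its WT and Sdha-KO levels were alike in batch 1 (a ratio of 1.04), and in batch 2 the WT level was at least 102-fold higher against the 3-count limit of a library with none. Clec4a2 shared 8.96% of its 50-base 3′ windows with Clec4a4 or Clec4b1, and Clec4b1 shared 12.9% of its own with Clec4a2, so reads of these genes may have been split or counted more than once.

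The low DCIR members gave little to compare. Clec4a4 (DCIR2) had 0, 86 and 87 counts in WT and 0, 1 and 41 in Sdha-KO replicates 1 to 3, and Clec4a1 (DCIR4) had 0, 23 and 39 and then 0, 2 and 59. Both were missing in batch 1 and nearly missing in Sdha-KO replicate 2. Their log2 fold changes were -2.25 (SE 2.74) and -0.13 (SE 2.70).

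Next come the receptors for fungi and mycobacteria. Clec7a (chromosome 6, 129461591 to 129472779, minus strand, listed by GENCODE as a polymorphic pseudogene) encodes Dectin-1. Its level was 1038, 1353 and 1493 CPM in WT and 335, 1111 and 681 CPM in Sdha-KO replicates 1 to 3, or 1295 ± 233 against 709 ± 389 CPM. Sdha-KO was lower in all 3 batches, by 3.10-fold, 1.22-fold and 2.19-fold, but Sdha-KO replicate 2 lay above WT replicate 1. The log2 fold change was -0.87 (SE 0.389, unadjusted p = 0.0451, edgeR adjusted p = 1), and -0.65 (SE 0.262, edgeR adjusted p = 0.466) without both batch 1 libraries.

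Clec4n encodes Dectin-2, which binds mannans and signals through the Fcer1g chain. Its level was nearly constant over WT libraries, at 221, 209 and 211 CPM, and spread widely over Sdha-KO libraries, at 370.3, 81.1 and 112 CPM. Sdha-KO replicate 1 was the highest of all 6 libraries and the other 2 Sdha-KO libraries were the lowest. WT exceeded Sdha-KO 2.58-fold in batch 2 and 1.88-fold in batch 3, and Sdha-KO exceeded WT 1.68-fold in batch 1. The log2 fold change over 6 libraries was -0.18 (SE 0.523), and its sign turned (0.27) when scaled by library totals alone. Without both batch 1 libraries it was -1.11 (SE 0.273, edgeR adjusted p = 0.248), and the block turned that into a call (-1.13, edgeR adjusted p = 0.0115), as did DESeq2 without the block (-1.11, adjusted p = 0.0146). With the block in those 4 libraries 2 Clec genes passed, Clec4a3 and Clec4n, where 3.01% of all tested genes passed and 1.36% as lower.

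Clec4e encodes Mincle, a receptor for mycobacterial glycolipids, and Clec4d encodes MCL, with which Mincle pairs. In batches 2 and 3 both had higher levels in Sdha-KO. Clec4e had 40.2, 25.1 and 51.3 CPM in WT and 0, 73.3 and 79.6 CPM in Sdha-KO replicates 1 to 3, and Clec4d had 17.3, 7.10 and 7.13 CPM and then 2.50, 25.5 and 30.4 CPM. In batch 1 the order was the opposite for both genes, and Sdha-KO replicate 1 had no Clec4e count. Without both batch 1 libraries the log2 fold changes were 1.01 for Clec4e (SE 0.419, edgeR adjusted p = 0.471) and 1.98 for Clec4d (SE 0.591, edgeR adjusted p = 0.314). Neither passed.

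Clec1a, whose product MelLec binds the melanin of Aspergillus spores, had 34.3, 44.4 and 21.6 CPM in WT and 0, 5.21 and 11.2 CPM in Sdha-KO replicates 1 to 3. The groups did not overlap, and the log2 fold change was -2.61 (SE 2.00, edgeR adjusted p = 1), or -1.99 (SE 0.671, edgeR adjusted p = 0.388) without both batch 1 libraries. Clec1a is also expressed by endothelium. Of the 5 endothelial markers, 4 were tested and 0 called, and their summed level was 17.8 to 33.7 CPM in WT and 0.25 to 32.0 CPM in Sdha-KO libraries. The members differed in direction. Of those tested, Vwf had 0.123, 22 and 11.7 CPM in WT and 0.25, 25.1 and 23 CPM in Sdha-KO replicates 1 to 3 (log2 fold change 0.51), Pecam1 had a log2 fold change of -0.09 and Cldn5 one of -1.49. Cdh5, named here with the others after its values were seen, did not overlap, with 144, 19 and 24 counts in WT and 0, 1 and 11 in Sdha-KO libraries. How far the sort for CD45 removed endothelial cells was not tested, nor was the part of these markers in the Clec1a difference.

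Clec2d and Clec2i encode ligands of NK receptors of the NKR-P1 family. Clec2d (Clr-b, chromosome 6, 129180615 to 129186534, plus strand) had 483, 130 and 147 counts in WT and 223, 23 and 11 in Sdha-KO replicates 1 to 3, or 59.2, 28.8 and 18.7 CPM against 18.6, 4.28 and 1.64 CPM. The groups did not overlap, though only narrowly, since Sdha-KO replicate 1 and WT replicate 3 almost met. Within batches WT exceeded Sdha-KO 3.18-fold, 6.74-fold and 11.4-fold. The log2 fold change was -2.12 (SE 1.63, edgeR adjusted p = 1) over 6 libraries and -3.00 (SE 0.813, edgeR adjusted p = 0.271) without both batch 1 libraries. By DESeq2 it passed in those 4 libraries (-2.99, adjusted p = 0.0396), where 4.9% of genes with an adjusted p were called and 1.95% as lower, and with edgeR's block it did not (adjusted p = 0.0846). Clec2i (Clr-g) was near the limit of detection in WT, with 2, 7 and 12 counts, and had 46, 52 and 13 counts in Sdha-KO replicates 1 to 3 (log2 fold change 2.20, SE 2.32). Its groups did not overlap either, in the opposite direction to Clec2d. Klrb1b, which encodes the inhibitory receptor for Clr-b and is named here after its values were seen, had 0, 7.32 and 3.95 CPM in WT and 0, 40.7 and 31.0 CPM in Sdha-KO replicates 1 to 3 (log2 fold change 2.67, edgeR adjusted p = 1). Without both batch 1 libraries its edgeR adjusted p was 0.202, and the block added to that fit gave 0.034, where 1.65% of all tested genes were called higher.

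Clec5a encodes MDL-1, a receptor that signals through the adaptors of Tyrobp and Hcst. It was the only Clec gene with more than 50 counts in every library whose level was higher in Sdha-KO in all 3 batches. Levels were 6.74, 26 and 23 CPM in WT and 28.7, 53.7 and 37.3 CPM in Sdha-KO replicates 1 to 3, with no overlap. Sdha-KO exceeded WT 4.26-fold, 2.07-fold and 1.62-fold in batches 1 to 3. The difference did not pass (log2 fold change 1.10, SE 1.24, edgeR adjusted p = 1; 0.90, SE 0.428, edgeR adjusted p = 0.531 without both batch 1 libraries).

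Clec12a encodes an inhibitory receptor for uric acid crystals. It had 0, 89 and 151 counts in WT and 0, 1 and 195 in Sdha-KO replicates 1 to 3, so that Sdha-KO replicate 3 was the highest library while Sdha-KO replicate 2 had a single count (log2 fold change -0.41, SE 2.60). Clec16a, named for a lectin-like stretch but known as a regulator of endosomes and mitophagy, had 25.7, 21.5 and 25.1 CPM in WT and 0, 31.2 and 18 CPM in Sdha-KO libraries (-0.56, SE 1.92). Its Sdha-KO levels in batches 2 and 3 lay on both sides of the WT range. Clec1b encodes CLEC-2, the podoplanin receptor of platelets, and its mean level was 5.79 CPM in both genotypes (SD 5.38 and 6.75). Exons of Clec1b and Clec9a overlap on the same strand, so both counts are uncertain.

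**Figure D3:**
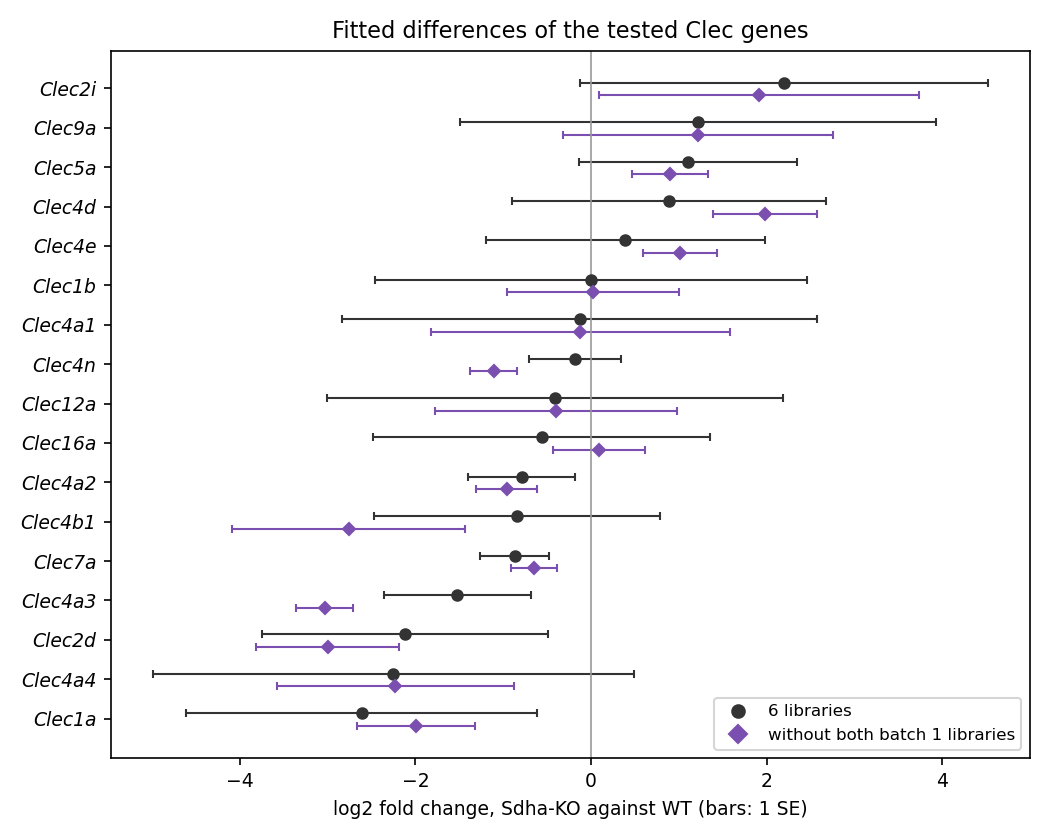
Fitted log2 fold changes (Sdha-KO against WT, x axis) of the 17 tested Clec genes with bars of 1 SE, from all 6 libraries (black circles) and without both batch 1 libraries (purple diamonds). Clec4a3 moves from -1.52 to -3.03 and its SE from 0.834 to 0.323. The bars of Clec12a, Clec1b, Clec4a1, Clec16a and Clec9a span 0 in both fits.

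By rank alone, the genotypes did not overlap in 4 of the 17 tested Clec genes, against 14.3% of all tested genes. Clec2d and Clec1a were lower (9.27% of all genes) and Clec5a and Clec2i were higher (5.04%). Sdha-KO was lower in 3 of 3 batches for 6 genes, Clec7a, Clec4a3, Clec4a2, Clec4b1, Clec2d and Clec1a, against 19.9% of all tested genes, and higher in 3 of 3 for Clec5a and Clec2i, against 11.4%. In batches 2 and 3, Sdha-KO was lower in both for 8 Clec genes (32.3% of all genes) and higher in both for 5 (28.1%). The 5 were Clec4e, Clec4d, Clec5a, Clec9a and Clec2i.

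In batches 2 and 3, summed markers of other myeloid cells were higher in Sdha-KO, as were some of the Clec genes. In batch 1 this held for the monocyte and interstitial macrophage sum but not for the dendritic cell or neutrophil sums. The sort kept cells positive for SiglecF and negative for CD11b, the product of Itgam. How far it removed monocytes and neutrophils was not tested. The 8 markers of monocytes and interstitial macrophages summed to 30.4 to 54.1 CPM in WT and 79.5 to 228 CPM in Sdha-KO libraries, without overlap. In Sdha-KO replicate 1 Ccr2 made up 99.4% of that sum, and without Ccr2 the other 7 summed to 25, 28 and 32.6 CPM in WT and 0.501, 109.5 and 159 CPM in Sdha-KO replicates 1 to 3, which overlap. Of 7 tested members all 7 had a positive log2 fold change with a median of 2.04, and edgeR called 0 with 6 libraries. In the blocked fit without both batch 1 libraries 1 was called, C1qb (log2 fold change 3.47, edgeR adjusted p = 0.00974), where 1.65% of all tested genes were called higher. Ccr2, the receptor that brings monocytes into tissue, had 44, 59 and 169 counts in WT and 947, 149 and 457 in Sdha-KO replicates 1 to 3, and it alone of the 8 did not overlap. The complement genes C1qa, C1qb and C1qc reached at most 37 counts in a WT library and 256 in a Sdha-KO library, both for C1qb. Itgam had 11 to 80 counts in WT and 0 to 190 in Sdha-KO libraries, and Cx3cr1 had 45 to 124 and 0 to 193. Ly6c2, which defines classical monocytes, had 22 counts in WT replicate 3 and none elsewhere. The 9 markers of conventional dendritic cells summed to 93.0 to 163 CPM in WT and 146 to 337 CPM in Sdha-KO libraries, and of 6 tested members 5 had a positive log2 fold change, with a median of 0.85 and 0 called with 6 libraries. In the blocked fit without both batch 1 libraries 1 was called, Ccr7 (3.47, edgeR adjusted p = 0.000432), against 1.65% of all tested genes called higher. Zbtb46, which defines the lineage, had 43 counts in Sdha-KO replicate 3 and none elsewhere, and Flt3 had 4 counts in WT replicate 3, 33 in Sdha-KO replicate 3 and none elsewhere. Irf8, which macrophages express too, made up most of the sum in the WT libraries, with 328 to 1095 counts there and 563 to 1691 in Sdha-KO libraries. Ccr7 had 0, 10 and 75 counts in WT and 60, 148 and 649 in Sdha-KO replicates 1 to 3, and Cd209a had 0, 2 and 38 and then 0, 201 and 120. Xcr1, Batf3, Itgae and Dpp4 had at most 153, 87, 5 and 23 counts in a WT library and 107, 175, 62 and 76 in a Sdha-KO library. These 2 lists were thus highest in Sdha-KO replicate 3. Neutrophil markers, led by S100a8 and Cxcr2, summed to 51.1 to 92.3 CPM in WT and 79.8 to 169 CPM in Sdha-KO libraries. Cxcr2 was called higher in that blocked fit (3.75, edgeR adjusted p = 0.00187), where 1.65% of all tested genes were. Clec10a, with 0, 0 and 4 counts in WT and 0, 38 and 59 in Sdha-KO replicates 1 to 3, was highest in the libraries with the highest monocyte and dendritic cell sums. Clec9a, with 0, 3 and 50 and then 0, 14 and 93 counts, was highest in Sdha-KO replicate 3, where the dendritic cell sum was highest too. Without both batch 1 libraries the log2 fold change of Clec10a was 4.76 (SE 2.08, edgeR adjusted p = 0.499), and 13.8% of its 3′ windows occur in its paralog Mgl2. The part of these cell types in the levels of Clec4d, Clec4e, Clec5a, Clec9a and Clec10a was not tested. Platelet markers, relevant to Clec1b, summed to 0 to 13.5 CPM in WT and 0 to 3.13 CPM in Sdha-KO libraries, and Gp9 had no count in any library. Of the other lists, epithelial markers summed to 188 to 342 CPM in WT and 90.7 to 618 CPM in Sdha-KO libraries, led by Scgb1a1 and Sftpc, and fibroblast markers to 51.1 to 104 and 0 to 172 CPM, led by Col1a2 and Col3a1. B cell markers stayed at or under 27.6 CPM and T or NK cell markers at or under 8.91 CPM in every library.

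**Figure D4:**
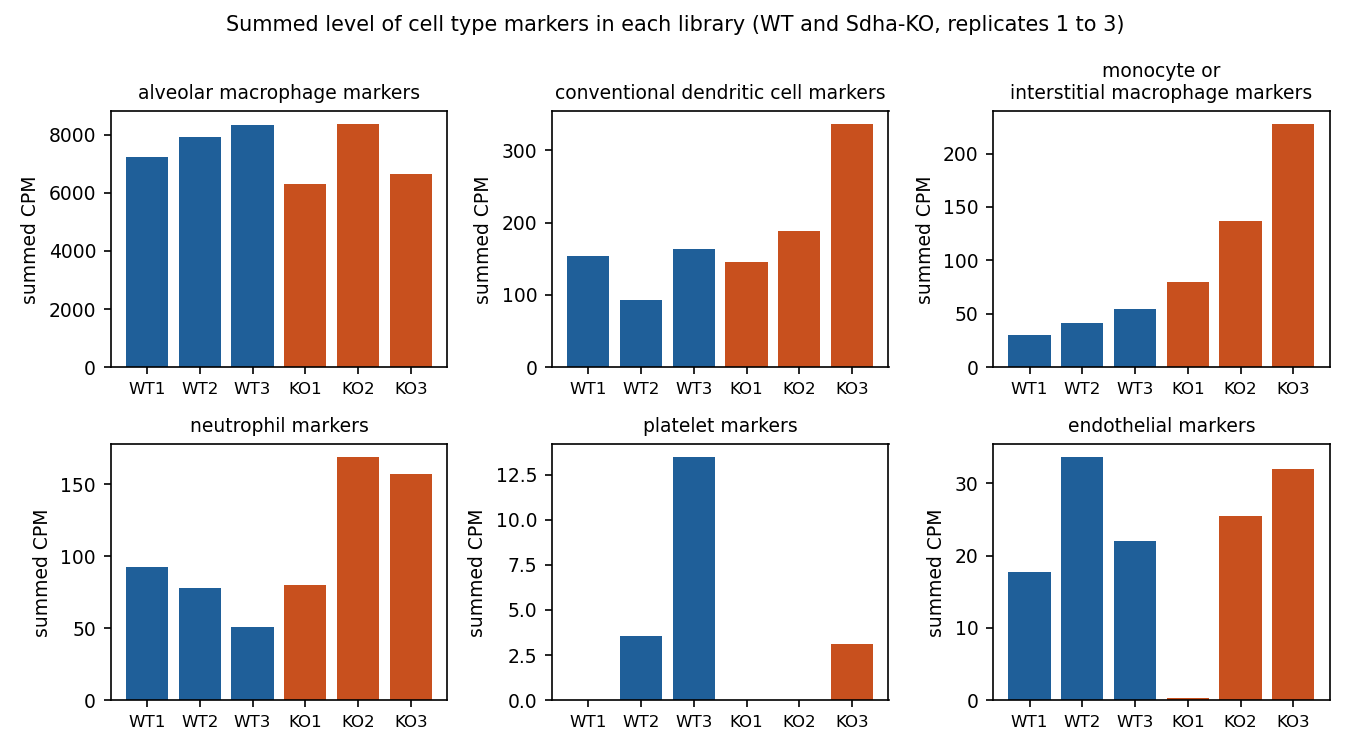
Summed level (CPM, bars from 0, a separate scale per panel) of 6 marker lists in WT (blue) and Sdha-KO (orange) replicates 1 to 3. The monocyte or interstitial macrophage sum is 30.4 to 54.1 CPM in WT and 79.5 to 228 CPM in Sdha-KO libraries, of which Ccr2 is 99.4% in Sdha-KO replicate 1. The alveolar macrophage sum is 6298 to 8374 CPM, of which Chil3 is 55.7% to 65%.

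Genes of the signalling pathway below these receptors were tested in 15 of 17 cases, and 0 passed in either direction with all 6 libraries or without both batch 1 libraries. Their median log2 fold change was -0.10. The adaptor genes Fcer1g and Tyrobp were the most abundant, at 424 ± 87.1 and 315 ± 51.6 CPM in WT and 377 ± 32.5 and 281 ± 31.8 CPM in Sdha-KO libraries. Among members named because genotypes did not overlap, the adaptor gene Hcst and the paracaspase gene Malt1 were higher in every Sdha-KO library, and the kinase gene Lyn was lower. Lyn had 207, 214 and 253 CPM in WT and 13.3, 151 and 202 CPM in Sdha-KO replicates 1 to 3.

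Of 40 genes with a C-type lectin fold but no Clec name, 18 were tested and 0 passed with all 6 libraries. Log2 fold changes were above 0 for 12 and below 0 for 6, against 55% of all tested genes below 0. The median was 0.99, against -0.13 over all tested genes. Mrc1, the mannose receptor gene, had 663 ± 281 CPM in WT and 288 ± 234 CPM in Sdha-KO libraries, and Olr1, a receptor for oxidised lipoprotein, had 416 ± 157 and 683 ± 81.0 CPM. Mrc1 was lower in Sdha-KO in all 3 batches with overlapping groups, and 19.9% of all tested genes were lower in all 3. Olr1, the only 1 of the 18 without overlap, was higher (5.04% of all tested genes). In the blocked fit without both batch 1 libraries 3 of these genes were called. Mrc1 was lower (log2 fold change -0.93, edgeR adjusted p = 0.00345), against 1.36% of all tested genes. Cd93 (1.33, edgeR adjusted p = 0.00612) and Klrb1b were higher, against 1.65%. Among alveolar macrophage markers 4 of 14 were lower without overlap (9.27% of all tested genes), namely Siglecf, Krt79, Cidec and Il18, and 1 was higher (5.04%), Car4. Their median log2 fold change was -0.81, and 0 were called with 6 libraries. In the blocked fit without both batch 1 libraries, which also called Clec4a3 and Clec4n, 6 of the 14 were called lower (Siglecf, Fabp1, Krt79, Mrc1, Cidec and Il18) and 2 higher (Fabp4 and Car4). The shares of all tested genes in that fit were 1.36% lower and 1.65% higher. The part of these marker differences in the lower levels of Clec4a3, Clec2d and Clec7a was not tested.

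The tested genes whose log2 levels were most like Clec4a3 over the 6 libraries were Clk2 (Pearson r = 0.991), Ehbp1l1 (0.983), Gm6225 (0.98), Prpf8 (0.979) and Mxd4 (0.971). In all 5, Sdha-KO replicates 2 and 3 were the lowest libraries and Sdha-KO replicate 1 was within the WT range or just below it. Among Clec genes, Clec2d (0.954), Clec4a2 (0.929), Clec4n (0.858) and Clec4b1 (0.82) were closest and Clec5a farthest (-0.759). These values describe 6 libraries that share batches, and both batch 1 libraries lack many transcripts.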

How the data were processed

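RNA was measured in 6 libraries of sorted alveolar macrophages, prepared with a 3′ mRNA kit per the labels' protocols. Values in the deposited table are raw counts of reads, not normalized by the authors. Rows are named by gene symbol, and 44 rows repeat a symbol. Bowtie2, bedtools and mm10 are named in the submitters' processing notes. How strand and reads with several matches were handled, and which annotation was used, were not given in the sources used here, and no molecular identifiers are mentioned, so limits for a count of 0 cover counting error only.

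Counts were tested with edgeR 4.0.16 in R 4.3.3 (filterByExpr at a minimum count of 10, normalization by TMM, a robust quasi-likelihood F-test with genotype as the only term) over all 9963 genes passing the filter, with Benjamini-Hochberg adjustment over all of them and a threshold of 0.05. Only Clec rows were then read out. TMM factors also scale the CPM values, and an SE is the size of a log2 fold change divided by the square root of F. The script was tested on simulated counts without batch effects and with less spread than these 6 libraries. That test checks the code and not its power in data like these. Earlier results of these data were known when the members, gene lists, settings and naming rule were chosen. That rule took every tested or expressed Clec row and, from each other list, those past the threshold, or its 2 most abundant where none was, and the 5 genes most like Clec4a3 by Pearson correlation of log2(CPM + 1). Other genes are said to be named after their values were seen, or were chosen because genotypes did not overlap or they served as markers. The ETS core was added to the motifs after the longer PU.1 core was not found.

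Replicate numbers are batch numbers in the labels, so they pair the libraries. Deviations from group means correlated at 0.147, 0.135 and 0.103 for libraries of the same number and at -0.149 to 0.0874 for others. No pair of libraries was as alike as sampling alone would make it (the lowest chi-square per degree of freedom was 36.5). Alternatives were RLE factors, library totals, other filters, DESeq2 1.42.0, limma-voom (limma 3.58.1), the replicate block, leaving out each library or both batch 1 libraries, leaving out Rn45s, Rn4.5s and Lars2, and summing rows of the same symbol. A further 3 combined settings were added after seeing the data: DESeq2 with the block, and DESeq2 or library totals without both batch 1 libraries. Coordinates are from GENCODE M21 on mm10, in which all 32 symbols matched, and upstream sequences are from RefSeq (GRCm38.p6), which listed 25 of them. Values of some list members are not reported here.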

Additional observations from a re-analysis of the deposited data

How the results depend on the processing

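Counts of Clec genes past the threshold were 0 in the 6-library settings and in each fit that left out 1 library. Without both batch 1 libraries the count was 1, with library totals alone there 1, with the replicate block there 2 (Clec4a3 and Clec4n) and with DESeq2 there 3 (these and Clec2d). Over all genes the count was 5, of which 4 were higher in Sdha-KO, and it was 9 with library totals, all 9 higher, 48 with no filter, 0 with the stricter filter (255 at an unadjusted p under 0.05), 21 with DESeq2, 20 with limma-voom, 0 with the replicate block (296 at an unadjusted p under 0.05), 72 with DESeq2 and the block, 27 without both batch 1 libraries, 324 with the block there, 302 with DESeq2 there and 48 with library totals there. Leaving out 1 library gave 0 to 13 (0 without WT replicate 1, where 340 had an unadjusted p under 0.05; 12 without WT replicate 2; 13 without WT replicate 3; 3 without Sdha-KO replicate 1; 2 without Sdha-KO replicate 3). The cause was not tested.

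Of the 17 tested Clec genes, 9 had the same direction in all settings that could be run, up to 20 each: Clec4a3 (log2 fold change -3.32 to -1.02), Clec7a (-1.34 to -0.53), Clec2d, Clec1a, Clec4a2, Clec4b1, Clec4a4, Clec5a and Clec2i. The sign turned for Clec4n with library totals (0.27), for Clec4d with limma-voom (-0.49), for Clec4e with limma-voom (-4.04), the replicate block (-0.52) and DESeq2 with the block (-0.51), and for Clec16a without both batch 1 libraries (0.09; 0.04 with the block, 0.10 by DESeq2, 0.21 with library totals). Clec1b, at -0.0026 over 6 libraries, turned to 0.03 with RLE factors, no filter and DESeq2, and to 0.12 with library totals. It was 0.01 without Rn45s, Rn4.5s and Lars2. Without both batch 1 libraries it was 0.02, 0.03 and 0.12 by edgeR, DESeq2 and library totals. Leaving out 1 library gave -7.03 to 0.18 for Clec12a, -4.13 to 0.46 for Clec4a1, -1.45 to 0.82 for Clec1b, -1.41 to 0.03 for Clec16a, -1.14 to 0.18 for Clec4n, -0.09 to 0.98 for Clec4e and -0.86 to 4 for Clec9a. At least 5 CPM in 2 WT libraries left 14 expressed members.

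Over all tested genes the log2 fold change had a median of -0.13, and it was 0.05 with library totals, -0.14 with RLE factors, -0.65 with limma-voom and -0.48 with the replicate block. The replicate block changed no call of a Clec gene over 6 libraries. The biological coefficient of variation was 1.4 with 6 libraries and 0.677 without both batch 1 libraries, and 8 of the 17 tested Clec genes had no count in Sdha-KO replicate 1.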
